A study of Mus musculus with 18 samples.

Results

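The type I interferon and antiviral genes described here are 40 named genes out of 38887 annotated genes in each library file. They hold the interferon-β gene, both chains of its receptor and 37 genes known to be induced by interferon or to act in antiviral defense. The list was drawn up by gene symbol, with earlier results of these data known. Of the 40 symbols, 38 were matched to an Ensembl identifier through the symbols in the deposited comparison tables. Mx1 and Mx2 were not among those symbols and were matched through the gene names of GENCODE. All 40 had values in every library, and no member was left out.

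Poly(A) RNA of bone marrow-derived macrophages (BMMs) was sequenced from 3 mouse genotypes that differ in the glucocorticoid-induced leucine zipper, GILZ, the product of Tsc22d3. BMMs are macrophages grown from bone marrow cells with the growth factor M-CSF, here for 6 days. They were left untreated or treated with 100 ng/ml of the bacterial cell wall component lipopolysaccharide (LPS) for 4 h. Each of the 6 groups held 3 libraries, described by the study as independent preparations, for 18 libraries in all. The mice were adult females on a C57BL/6J background. By the study's methods all 3 genotypes carried the Cre recombinase knocked into the Lyz2 locus, which is active in myeloid cells, and the WT group was the Cre line itself. The libraries did not bear out a like Lyz2 locus in the 3 genotypes, as its levels, given below with those of the targeted gene, were far apart between WT and the others. GILZ KO mice also had an exon of Gilz flanked by loxP sites. GILZ TG mice also had a Gilz cDNA in the ROSA26 locus behind a loxP-flanked stop cassette. Deletion and overexpression therefore depended on Lyz2-driven Cre and were present in cells that had expressed it.

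Type I interferons are the secreted proteins with which cells announce a virus or a bacterium. In macrophages, LPS is sensed by TLR4, which signals through the adaptor TRIF and the transcription factor IRF3 to the interferon-β gene Ifnb1. The secreted protein binds the receptor chains IFNAR1 and IFNAR2, whose kinases JAK1 and TYK2 activate transcription factors in the cell. Complexes that hold STAT2 and IRF9 then bind the interferon-stimulated response element (ISRE) in front of the target genes.

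The ISRE is the sequence that many members are known to share, so promoters of 6 members are printed. RefSeq promoter entries (build GRCm38.p6) were found for 31 of the 40 members. No entry was matched for Usp18, Oas2, Mx1, Mx2, Dhx58, Zbp1, Parp9, Parp14 and Rtp4. The 250 bases before each start were searched for the ISRE core GAAANNGAAA on both strands, with overlapping matches allowed, and for the gamma-activated sequence TTCNNNGAA, which reads the same on both strands. The ISRE core was in 10 of the 31 members (32.3%) and in 936 of all 27025 genes with an entry (3.46%). The gamma-activated sequence was in 6 of the 31 members (19.4%), against 8.13% of all genes. Ifnb1 is shown as the interferon gene, Rsad2 and Ifitm3 for their large and small LPS responses, Isg15 and Ifit1 for several cores, and Herc6 as a member that differed between genotypes without a core. Capitals mark the ISRE core on either strand.
Ifnb1 promoter, chr4:88522795-88523044, minus strand: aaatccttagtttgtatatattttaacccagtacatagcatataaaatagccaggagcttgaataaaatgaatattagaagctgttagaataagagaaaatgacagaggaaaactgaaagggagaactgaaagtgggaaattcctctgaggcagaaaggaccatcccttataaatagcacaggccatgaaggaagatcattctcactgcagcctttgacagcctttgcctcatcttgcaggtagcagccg
Ifit1 promoter, chr19:34640639-34640888, plus strand: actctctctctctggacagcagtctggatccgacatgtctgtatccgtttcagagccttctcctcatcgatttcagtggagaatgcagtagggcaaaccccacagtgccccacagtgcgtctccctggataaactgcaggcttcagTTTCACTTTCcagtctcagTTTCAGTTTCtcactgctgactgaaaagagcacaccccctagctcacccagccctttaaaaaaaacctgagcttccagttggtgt
Isg15 promoter, chr4:156200819-156201068, minus strand: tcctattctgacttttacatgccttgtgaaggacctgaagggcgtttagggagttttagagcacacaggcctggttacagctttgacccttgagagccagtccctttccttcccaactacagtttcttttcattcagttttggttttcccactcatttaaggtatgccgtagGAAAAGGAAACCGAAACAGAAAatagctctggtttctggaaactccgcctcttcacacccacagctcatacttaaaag
Rsad2 promoter, chr12:26456453-26456702, minus strand: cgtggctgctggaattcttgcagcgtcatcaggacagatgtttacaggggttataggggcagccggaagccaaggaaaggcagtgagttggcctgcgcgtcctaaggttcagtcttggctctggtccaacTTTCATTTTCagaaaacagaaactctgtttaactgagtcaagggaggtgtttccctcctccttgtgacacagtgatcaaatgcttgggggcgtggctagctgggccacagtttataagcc
Herc6 promoter, chr6:57580742-57580991, plus strand: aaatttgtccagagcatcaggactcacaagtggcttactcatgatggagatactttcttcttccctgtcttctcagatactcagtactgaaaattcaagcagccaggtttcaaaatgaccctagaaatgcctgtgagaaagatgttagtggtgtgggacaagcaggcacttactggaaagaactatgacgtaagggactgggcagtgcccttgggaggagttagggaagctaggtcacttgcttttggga
Ifitm3 promoter, chr7:141010745-141010994, minus strand: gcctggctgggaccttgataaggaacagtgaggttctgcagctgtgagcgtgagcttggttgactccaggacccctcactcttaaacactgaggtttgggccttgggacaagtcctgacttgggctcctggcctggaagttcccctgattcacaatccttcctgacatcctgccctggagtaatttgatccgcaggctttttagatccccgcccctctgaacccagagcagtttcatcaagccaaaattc
In the Isg15 promoter the cores overlapped and began 78, 72 and 66 bases before the start. In the Ifit1 promoter they lay 104 and 85 bases before it. Rsad2 held 1 core, 120 bases before the start. The windows of Ifnb1, Herc6 and Ifitm3 did not hold these letters. A match is a description of the sequence and not a measured binding site.

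The libraries held 14583055 to 38557029 reads assigned to genes, with a median of 24450362. Tsc22d3, the targeted gene, had a level of 14.9 to 18.8 TPM in untreated WT libraries, where TPM is the share of transcripts corrected for their length. It was at 1.89 to 2.81 TPM in the untreated knockout and at 152.0 to 159.8 TPM in untreated GILZ TG. After LPS it was at 5.15 ± 0.63 TPM in WT, at 2.91 ± 0.39 TPM in the knockout and at 131.7 ± 7.6 TPM in GILZ TG (SD, n = 3). Lyz2, the lysozyme gene that holds the Cre knock-in, was at 11048 to 15401 TPM in untreated WT libraries and at 17.2 to 53.1 TPM in untreated GILZ KO and GILZ TG libraries. After LPS it was at 6766 to 9466 TPM in WT and at 22.2 to 70.3 TPM in the others. Every contrast with WT thus also held a difference in Lyz2, which cannot be told apart from that in Gilz, while GILZ KO and GILZ TG were both low. The summed level of 7 macrophage markers was 3825 to 5021 TPM in all libraries. The summed level of 5 plasmacytoid dendritic cell markers, a cell type known for interferon, was at most 0.43 TPM in any untreated library and 1.27 to 1.51 TPM after LPS, with Siglech at most 0.10 TPM and Klk1 at 0 throughout. Replicates 1 and 2 of GILZ TG stood apart in both treatments. The untreated values follow. Their summed level of 6 stromal fibroblast markers was 98.3 and 112.7 TPM against 4.58 to 21.3 TPM in the other 7 untreated libraries, and 5 of the 6 genes were above all of those. Their sum of 7 neutrophil lineage markers was 153.2 and 401.2 TPM against 19.8 to 57.3 TPM, with 5 of 7 genes above all others. Their sum of 6 B cell markers was 91.5 and 152.9 TPM against 30.9 to 35.9 TPM, with 3 of 6 genes above. Of these 3, Igkc was at 42.3 and 97.4 TPM, Ighm at 42.0 and 46.2 TPM and Ms4a1 only at 0.08 and 0.06 TPM. Cd79b went the other way, at 7.05 and 9.05 TPM against 9.23 to 13.4 TPM in WT and GILZ KO. GILZ TG replicate 3 was not free of this signal, with Igkc at 11.4 TPM against at most 1.46 TPM in WT and GILZ KO libraries. Since replicates 1 and 2 stood apart, results against GILZ TG are also given without them. That leaves 1 GILZ TG library a treatment, which is assumed to vary like the other groups, so that a call lost there says nothing about stability and the size of the difference is given. In bulk RNA, fewer cells of a type and less RNA per cell cannot be told apart.

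Before LPS most members were expressed at a low level. In untreated WT BMMs the median level of the 40 members was 20.9 TPM, 38 were above 1 TPM, 26 above 10 TPM and 5 above 100 TPM. Ifitm3, a membrane protein that blocks virus entry, was the highest, at 2067.8, 2187.0 and 2528.6 TPM in the 3 WT libraries. Next was Bst2, or tetherin, which holds budding virus at the cell surface, at 261.3, 220.6 and 237.1 TPM. The receptor chain Ifnar1 followed at 154.4, 144.1 and 114.5 TPM. The receptor was thus among the highest members before LPS, and its other chain, Ifnar2, was at 128.6 ± 6.3 TPM (SD, n = 3). The ranges of Ifnar1 and Ifnar2 overlapped, so that their order was not separated from the spread between libraries. Ifnb1 had no read in any of the 9 untreated libraries, which allows up to 3 counts a library.

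**Figure D1:**
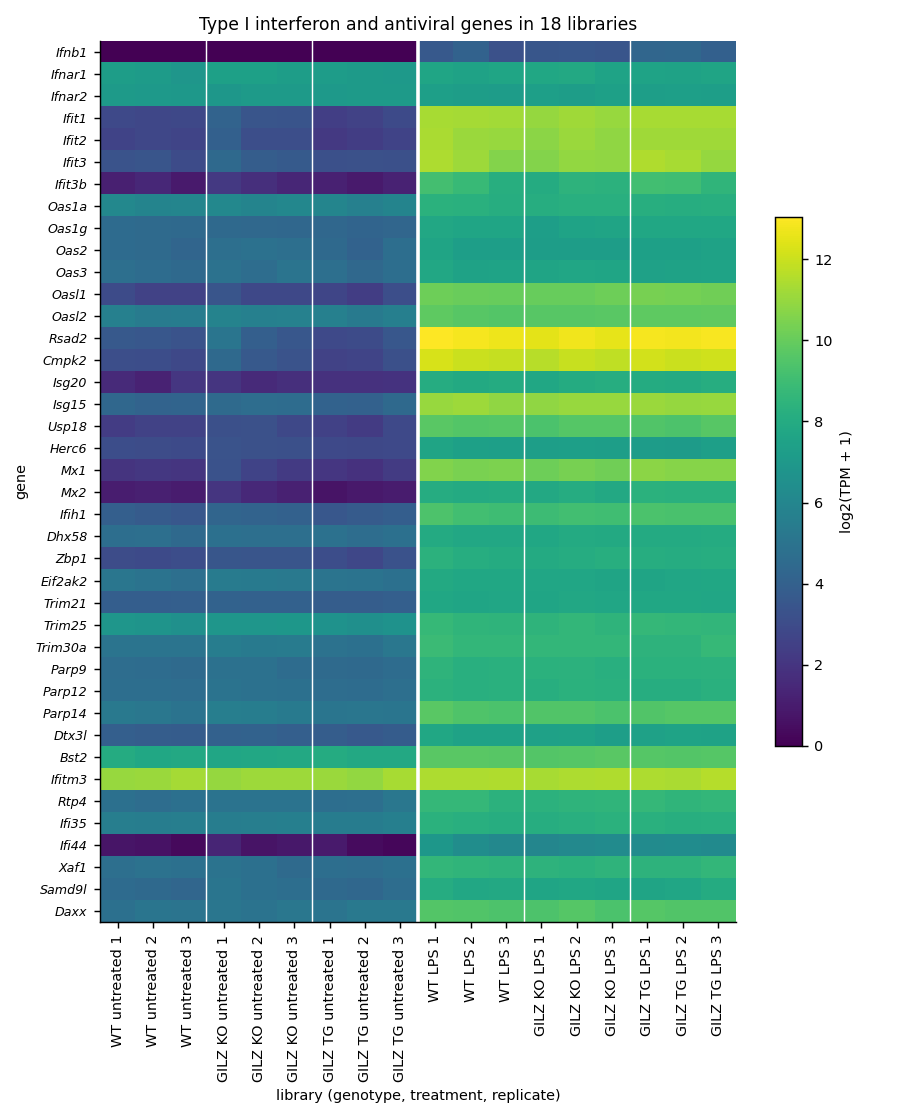
Level of each of the 40 members (rows, by role) in each of the 18 libraries (columns, grouped by treatment and genotype), as log2(TPM + 1) by color. Every member is brighter in the 9 LPS libraries on the right, Ifitm3 is bright in both treatments, and Ifnb1 is at 0 in all untreated libraries.

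After LPS every member rose in every genotype. All 40 of 40 were called higher in WT, in GILZ KO and in GILZ TG BMMs by edgeR's quasi-likelihood test with Benjamini-Hochberg adjustment over all 13169 genes tested. The largest adjusted p of a member in WT was 1.44e-06. Of all genes tested, 33.5% were called higher in WT, 33.2% in GILZ KO and 33.6% in GILZ TG. Over the members the median log2 fold change was 4.68 in WT, 4.47 in GILZ KO and 4.75 in GILZ TG, while that of all genes was -0.02 in each. The level ranges of the untreated and the LPS libraries did not overlap for any member in any genotype, which held for 16.3% of all genes in WT, 16.4% in GILZ KO and 15.7% in GILZ TG in the same direction. The members' share of all reads went from 0.24% ± 0.01 to 5.36% ± 0.49 in WT, from 0.26% ± 0.01 to 4.77% ± 0.34 in GILZ KO and from 0.24% ± 0.02 to 5.53% ± 0.14 in GILZ TG (SD, n = 3). In WT the median level rose to 346.6 TPM, and 9 members were above 1000 TPM in place of 1.

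Ifnb1, the interferon itself, was detected in all LPS libraries. Its read counts were 111, 146 and 87 in WT, 89, 59 and 59 in GILZ KO and 282, 252 and 118 in GILZ TG. After scaling for depth, and against a floor of 3 counts in each untreated library, these were at least 43.1-fold higher in WT, at least 29.5-fold in GILZ KO and at least 55.1-fold in GILZ TG. Per length, its level was 17.8 ± 2.5 TPM in GILZ TG, 12.2 ± 4.0 TPM in WT and 10.2 ± 0.4 TPM in the knockout, whereas 38 of the 40 members were above 100 TPM after LPS in each genotype. The genes for interferon-α in the pathway list, Ifna1, Ifna2, Ifna4 and Ifna5, were at 0 TPM in all libraries, other than Ifna4 at 0.08 TPM in a GILZ TG library after LPS.

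The receptor chains and Ifitm3 had the smallest responses. Ifnar1 rose 2.21-fold and Ifnar2 2.15-fold in WT, with SEs of 0.07 and 0.06 on the log2 scale, and Ifitm3, already high, rose by log2 0.92 ± 0.11. The size of the LPS responses depended on the scaling, and not only for these 3. The log2 values of the other members are given on the count scale. On the log2(TPM + pseudocount) scale the median gene was itself at -0.51 to -0.64 across the 3 genotypes, in place of -0.02. On that scale, with a pseudocount of 1, the lowest values over the 3 genotypes were 0.39 for Ifnar1 in GILZ KO, 0.23 for Ifnar2 in GILZ TG and 0.30 for Ifitm3 in WT, still higher after LPS and called by limma.

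The largest responses among the members with reads in untreated WT were those of neighbors on chromosome 12. Rsad2 encodes viperin, a radical-SAM enzyme that makes a chain-terminating nucleotide from CTP, and Cmpk2 the nucleotide kinase next to it, with 12752 bases between them. Rsad2 was at 11.7, 10.8 and 9.01 TPM in untreated WT and at 8455.1, 7352.7 and 6694.2 TPM after LPS, a log2 fold change of 10.13 ± 0.41. Cmpk2 went from 7.68, 7.51 and 6.12 TPM to 4893.3, 4042.3 and 3820.1 TPM, a log2 fold change of 9.86 ± 0.32. After LPS Rsad2 had the highest level of all members. Isg20, an exonuclease of the same role group, rose by log2 7.41.

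The IFIT genes, whose products bind viral RNA ends, came next as a family. Ifit2, Ifit3, Ifit3b and Ifit1 lie in 1 cluster on chromosome 19 and rose by log2 8.62 to 9.40 in WT, with a median of 9.14. Ifit3 and Ifit3b are near-identical copies, and their split of reads is uncertain. The dynamin-like GTPases Mx1 and Mx2, neighbors on chromosome 16, rose by log2 9.46 and 8.53. Their expected counts were fractional, at 128.21 and 40.79 in untreated WT replicate 1, so that the split of reads between Mx1 and Mx2 is uncertain too. The C57BL/6J alleles of both genes are known to be defective, so these values concern RNA and not a working protein. In the ISG15 system, the ubiquitin-like modifier Isg15 rose by log2 7.50, its protease Usp18 by 8.04 and its ligase Herc6 by 5.27. The oligoadenylate synthetase family, some of whose members activate RNase L, was more uneven. Oasl1 rose by log2 8.31, whereas Oas1a, Oas2, Oas3 and Oas1g, in 1 cluster on chromosome 5, rose by 2.93 to 3.80, and Oasl2 by 4.82. Oas1a and Oas1g also share sequence, so that their split of reads is uncertain.

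The sensors covered a middle range. The RNA sensor Ifih1, or MDA5, rose by log2 6.03, the Z-nucleic acid sensor Zbp1 by 6.47, the regulator Dhx58, or LGP2, by 3.92 and the kinase Eif2ak2, or PKR, by 3.53. The ADP-ribosyltransferases Parp9, Parp12 and Parp14 and the ligase Dtx3l lay within 4.29 to 5.04. Dtx3l and Parp9 overlap by 681 bases on opposite strands. The TRIM ligases ran from 2.26 for Trim25, which ubiquitinates RIG-I, to 4.53 for Trim21, the cytosolic antibody receptor. Among the rest, Ifi44 rose by log2 7.94, and the others of that group, Ifi35, Xaf1, Samd9l and Daxx, by 3.32 to 4.99. The 10 members with an ISRE core had a median of 5.92 in WT, ranging from 2.42 to 10.1, and the 21 with an entry but no core a median of 4.54. The ranges of both sets overlapped, and Ifnb1, Cmpk2 and Ifit2 were among the members without a core in the window.

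**Figure D2:**
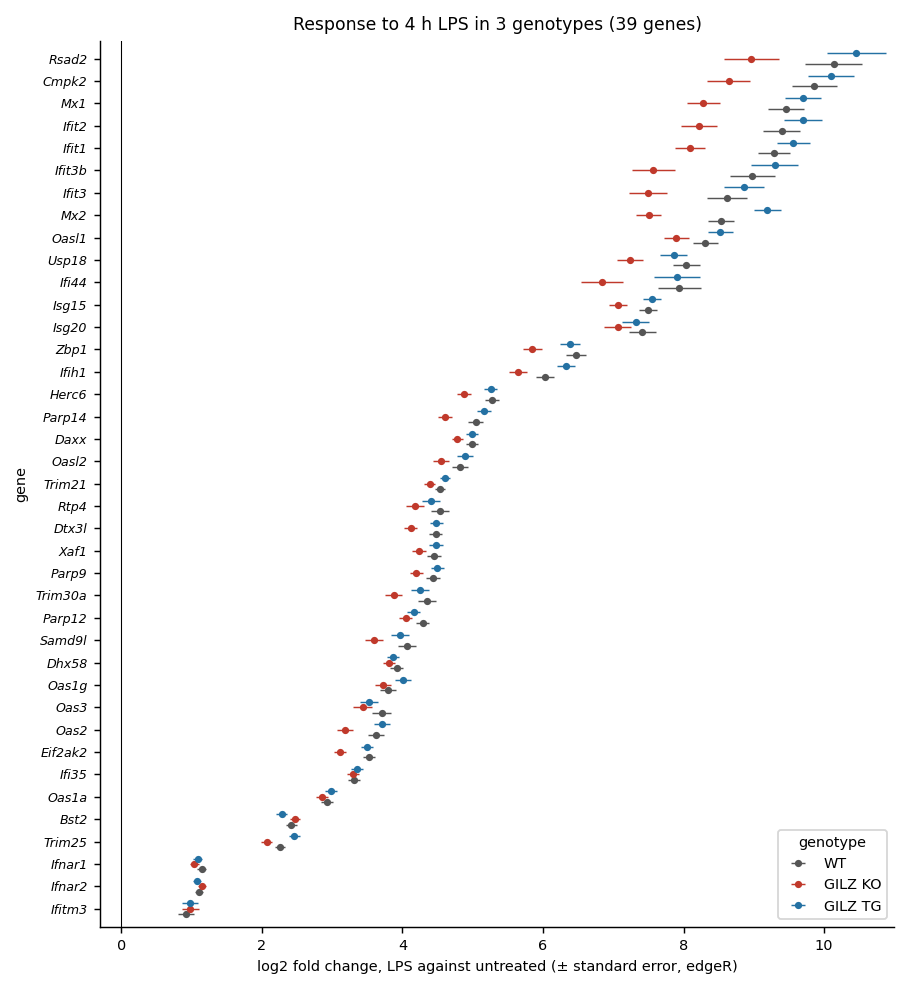
Log2 fold change between LPS and untreated BMMs with its standard error (x axis) for 39 members (rows, ordered by WT) in WT, GILZ KO and GILZ TG. Every value is above 0, from 0.92 for Ifitm3 to 10.13 for Rsad2 in WT, and the GILZ KO points of the upper members lie to the left of the other genotypes. Ifnb1 is left out because it had no reads in untreated cells.

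Of the other interferon pathway genes, 29 were found and 25 passed the filter on low counts. In each genotype 20 of the 25 were called higher after LPS and 4 lower by edgeR, where 35.1% of all genes were called lower in WT, 35.4% in GILZ KO and 35.1% in GILZ TG. Among the genes that rose in WT were the regulator Irf7 at log2 6.21, the feedback inhibitor Socs1 at 6.69, and the transcription factor genes Stat2 at 4.56 and Irf9 at 2.19. The genes that fell were Traf3 at -1.01, the interferon-γ receptor chain Ifngr1 at -0.63, the adaptor Mavs at -0.53 and Irf3 at -0.45. Tmem173, which encodes STING, did not pass in WT, at 0.08. Its direction depended on the scaling, since in TPM it went from 26.6 to 30.0 in untreated WT to 17.6 to 20.4 after LPS. Some calls of higher genes depended on it too. In TPM, all WT libraries after LPS were above all untreated ones for 16 of the 25 genes, against 16.3% of all genes. They were below for 6, against 64.8% of all genes. Ptpn6, called higher, was at 255.8 to 264.9 TPM in untreated WT and at 235.2 to 254.7 TPM after LPS.

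Without LPS, most members had a higher mean in GILZ KO than in WT BMMs, but no member passed the adjusted threshold in edgeR. It called 0 of 39 members tested. Ifnb1, without reads, was not tested. At an unadjusted p under 0.05, 22 members were higher and 0 lower, where 5.4% of all 12621 genes tested were higher and 4.2% lower. Without GILZ KO replicate 1 this count was 13. DESeq2 called 4 members, Ifit1, Ifit2, Ifit3 and Parp14, and limma 0. Of all genes tested, edgeR called 6 higher (0.0475%) and 6 lower (0.0475%). The log2 fold change was above 0 for 34 of the 39, against 49.2% of all genes, with a median of 0.24 and a median of all genes near 0. For 21 members the 3 GILZ KO libraries were all above the 3 WT libraries in TPM, against 12.7% of all genes. The pathway list had a median of 0.03, with 5 of 25 genes higher and 1 lower at an unadjusted p under 0.05 and 0 called by edgeR.

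The members with the smallest p were Parp14 and Ifit1. Parp14, an ADP-ribosyltransferase, was at 37.6, 35.0 and 30.0 TPM in WT and at 47.5, 44.7 and 40.9 TPM in GILZ KO. Its log2 difference was 0.34 ± 0.07 (SE), with an edgeR adjusted p of 0.217. Ifit1 was at 6.47, 5.78 and 6.20 TPM in WT and at 16.9, 9.95 and 9.42 TPM in GILZ KO. Its log2 difference was 0.94 ± 0.22, with an edgeR adjusted p of 0.289. In both genes every GILZ KO library was above every WT library, and for Ifit1 GILZ KO replicate 1 was far above the others. The IFIT genes differed by 0.80 to 0.94, Mx1 and Mx2 by 0.89 and 0.88, and Rsad2 and Cmpk2 by 0.88 and 0.93, while the OAS genes had a median of 0.24 and Ifnar1 and Ifnar2 were at 0.08 and 0.02. None of these passed in edgeR. The 5 members below 0 were Bst2, Oas1g, Ifitm3, Ifi35 and Oas1a, at -0.15 to -0.02, of which Ifi35 and Oas1a were above 0 on the log2(TPM + pseudocount) scale, where Xaf1 was below.

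GILZ KO replicate 1 was the highest of its group for 26 of the 39 members. Rsad2 was at 33.0 TPM there and at 14.3 and 10.7 TPM in the other GILZ KO libraries, the last of which lay inside the WT range of 9.01 to 11.7 TPM. The median log2 ratio of the members to the WT mean was 0.33, 0.27 and 0.21 in the 3 GILZ KO libraries, 0.09, 0.01 and -0.06 in the WT libraries and -0.04, -0.20 and 0.08 in the GILZ TG libraries. The 3 GILZ KO libraries were thus the 3 highest of the untreated 9 in this median.

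No member was called between untreated GILZ TG and WT BMMs. edgeR, DESeq2 and limma each called 0 of 39, where edgeR called 0.364% of all genes higher and 0.277% lower. At an unadjusted edgeR p under 0.05, 0 members were higher and 2 lower, against 7.74% and 6.36% of all genes. These were Trim25 at -0.21 ± 0.07 and Herc6 at -0.20 ± 0.06 (log2, SE), with adjusted p of 0.199 and 0.200 by edgeR. The count of 2 was 5 without WT replicate 3 or GILZ TG replicate 1. Without GILZ TG replicate 3, 1 member was called, Trim25, lower. The median of the members was -0.06, with 11 of 39 above 0, and the values ran from -0.39 to 0.14. The direction depended on which GILZ TG replicates were kept, with median log2 ratios to the WT mean of -0.04, -0.20 and 0.08 in replicates 1 to 3. Replicates 1 and 2 stood apart in other cells' markers, whose part in the direction was not tested. Leaving out both kept 1 GILZ TG library. Without both, 25 of 39 were above 0 with a median of 0.08, and 16 members had changed direction, among them Ifit1, Rsad2 and Cmpk2. The median was -0.01 without replicate 2 alone and -0.13 without replicate 3.

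The contrast between the knockout and the overexpressing cells was the only untreated one in which edgeR called members. In GILZ KO against GILZ TG BMMs, edgeR called 9 of 39 members higher and 0 lower, where 2.77% of all genes were called higher and 2.16% lower. These were Ifit1, Ifit2, Ifit3, Herc6, Ifih1, Eif2ak2, Trim25, Trim30a and Parp14. At an unadjusted p under 0.05, 24 members were higher and 0 lower, against 12.3% of all genes in each direction. The log2 difference was above 0 for 35 of 39, against 49.1% of all genes, with a median of 0.29, and 23 members had all GILZ KO libraries above all GILZ TG libraries, against 18.6% of all genes. The call count was 15 by DESeq2 and 4 by limma on TPM with either pseudocount. It rested on single libraries. It was 0 when GILZ KO replicate 1 or GILZ TG replicate 2 was left out, and 1, Herc6, when GILZ KO replicate 2 or GILZ TG replicate 1 was. It was 5 when GILZ KO replicate 3 or WT replicate 2 was left out, and 18 when GILZ TG replicate 3 was. Without GILZ TG replicates 1 and 2, whose stromal, neutrophil and B cell marker sums stood apart, 1 GILZ TG library remained and edgeR called 0 members, while the 9 differences were still above 0, from 0.17 for Trim25 to 0.93 for Ifit2. The part of those other cells in the difference was not tested.

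The 3 IFIT genes had the largest of the called differences. Ifit2 was at 14.9, 7.74 and 7.86 TPM in the knockout and at 3.50, 4.25 and 5.18 TPM in GILZ TG, a log2 difference of 1.21 ± 0.24 (SE) with an edgeR adjusted p of 0.0270. Ifit1, at 4.31, 5.04 and 6.50 TPM in GILZ TG, differed by 1.16 ± 0.23 (adjusted p = 0.0230). Ifit3 was at 21.4, 13.3 and 11.8 TPM in the knockout and at 8.04, 8.53 and 8.25 TPM in GILZ TG, a difference of 0.88 ± 0.20 (adjusted p = 0.0402). WT lay with GILZ TG, since Ifit2 was at 5.16, 5.76 and 5.32 TPM and Ifit3 at 9.29, 9.71 and 7.01 TPM there.

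The other 6 called members differed less, and their GILZ KO libraries lay closer together than those of the IFIT genes. Herc6, the ISG15 ligase, was at 9.00, 8.34 and 8.15 TPM in the knockout, at 7.59, 7.14 and 6.51 TPM in WT and at 6.24, 6.09 and 6.28 TPM in GILZ TG. Its log2 difference in this contrast was 0.42 ± 0.06, with an edgeR adjusted p of 0.0109, the smallest of the members. Parp14, at 33.0, 33.5 and 32.4 TPM in GILZ TG, differed by 0.40 ± 0.07 (adjusted p = 0.0175). Among the 39 members, Herc6 and Oas1g had 3 genotypes that did not overlap with each other. WT lay in between for Herc6 and was the highest for Oas1g, at 21.1 to 22.9 TPM.

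Trim30a, an inhibitor of Toll-like receptor signaling, was at 46.0, 39.7 and 42.8 TPM in the knockout and at 29.6, 27.5 and 34.7 TPM in GILZ TG, a log2 difference of 0.46 ± 0.09 (edgeR adjusted p = 0.0247). Its WT libraries, at 31.9, 31.0 and 31.8 TPM, lay inside the GILZ TG range. The kinase Eif2ak2 was at 42.2, 40.5 and 37.4 TPM against 31.6, 30.5 and 27.6 TPM and differed by 0.36 ± 0.07 (adjusted p = 0.0230). The sensor Ifih1 was at 18.3, 16.6 and 15.5 TPM against 10.6, 12.2 and 13.8 TPM and differed by 0.36 ± 0.08 (adjusted p = 0.0402). Trim25 was at 114.7, 115.2 and 117.2 TPM against 89.4 to 98.1 TPM and differed by 0.29 ± 0.07 (adjusted p = 0.0413). In all 4 genes the groups did not overlap. Of the 25 pathway genes tested, 1 was called higher, Adar, the RNA-editing enzyme, at 0.19 ± 0.04 (edgeR adjusted p = 0.0350), and 0 lower.

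**Figure D3:**
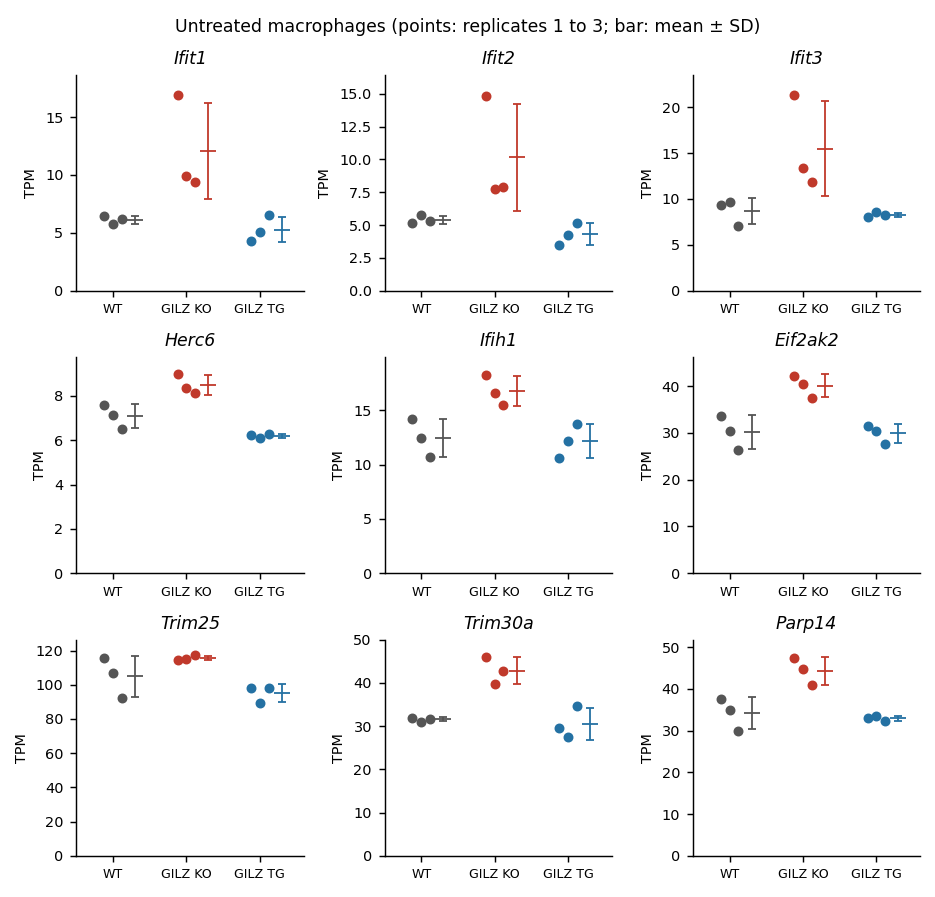
Level (TPM) of the 9 members called between GILZ KO and GILZ TG in the 9 untreated libraries, with points for replicates 1 to 3 and a bar for the mean ± SD of each genotype. The GILZ KO points are above the GILZ TG points in every panel, and replicate 1 of GILZ KO stands out for Ifit1, Ifit2 and Ifit3.

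After LPS most members had a lower mean in GILZ KO than in WT, again without a call. In GILZ KO against WT BMMs after LPS, edgeR, DESeq2 and limma called 0 of 40 members. Of all 12164 genes tested, edgeR called 0.0411% higher and 0.0411% lower. At an unadjusted edgeR p under 0.05, 0 were higher and 6 lower (Mx1, Ifit1, Ifi44, Rsad2, Ifit2 and Cmpk2), against 4.81% and 4.82% of all genes. This count of 6 rested on single libraries, since it was 1, 2 and 13 without WT replicates 1, 2 and 3 and 0 and 3 without GILZ KO replicates 1 and 3. The log2 difference was below 0 for 35 of the 40, with a median of -0.11, where 50.2% of all genes were below 0, and without WT replicate 1 it was below 0 for 28, with a median of -0.03. Mx1 had the smallest p, at 1515.0, 1347.8 and 1415.8 TPM in WT and 1143.6, 1301.0 and 1170.7 TPM in GILZ KO. Its log2 difference was -0.24 ± 0.08 (SE) with an edgeR adjusted p of 0.393. Ifit1 followed, at 2595.5, 2501.3 and 2370.6 TPM in WT and 2004.9, 2320.6 and 2067.9 TPM in GILZ KO, with -0.23 ± 0.08 and an adjusted p of 0.421. In both genes the groups did not overlap, yet neither was called. WT replicate 1 was the highest of its group for 35 of the 40 members, and GILZ KO replicate 1 the lowest of its group for 27.

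In GILZ TG against WT BMMs after LPS, edgeR called 0 of 40 members, and 4 were higher and 1 lower at an unadjusted p under 0.05, against 8.02% and 7.2% of all genes. edgeR called 0.263% of all genes higher and 0.197% lower. DESeq2 called 1, Mx2, and limma 0. Without GILZ TG replicate 3, edgeR called 1, Trim30a, lower. The count of 5 at an unadjusted p under 0.05 was 2, 3 and 9 without GILZ TG replicates 1, 2 and 3. Mx2 was at 271.3, 246.5 and 262.9 TPM in WT and at 324.7, 315.0 and 312.2 TPM in GILZ TG, a log2 difference of 0.29 ± 0.08 (edgeR adjusted p = 0.128). Oasl1, which damps translation of the regulator IRF7, was at 1145.2, 1086.2 and 1033.9 TPM in WT and at 1342.3, 1267.7 and 1194.0 TPM in GILZ TG, a difference of 0.24 ± 0.08 (adjusted p = 0.183). Both had every GILZ TG library above every WT library. The median over the members was 0.01, with 24 of 40 above 0, and it lay between -0.05 and 0.08 when single libraries were left out. Without GILZ TG replicates 1 and 2 it was 0.06, with 30 above 0, and Mx2 differed by 0.30.

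Mx1 and Mx2 were lower in the knockout than in the overexpressing cells after LPS. In GILZ KO against GILZ TG BMMs, edgeR called 2 of 40 members lower and 0 higher, where 1.38% of all genes were called lower and 1.22% higher. Mx1, at 1730.0, 1652.5 and 1613.1 TPM in GILZ TG, differed by -0.47 ± 0.08 (adjusted p = 0.0168). Mx2, at 234.9, 267.3 and 230.3 TPM in GILZ KO, differed by -0.39 ± 0.08 (adjusted p = 0.0285). The split of reads between Mx1 and Mx2 is uncertain, so that their calls are not cleanly separate. At an unadjusted p under 0.05, 10 members were lower and 1 higher, against 10.2% and 8.94% of all genes. This count of 11 was 5 without GILZ KO replicate 1 or GILZ TG replicate 1. In TPM, 16 members had all GILZ KO libraries below all GILZ TG libraries, against 9.36%. Ifnb1 was one of these, at 10.3, 10.6 and 9.77 TPM against 18.7, 19.7 and 14.9 TPM, a log2 difference of -0.81 ± 0.22 (edgeR adjusted p = 0.0688). DESeq2 called 5 members (Ifnb1, Ifit1, Oasl1, Mx1 and Mx2), and limma 2. In the edgeR test the count was 0 when GILZ KO replicate 1 or 3 or GILZ TG replicate 1 was left out, 1 (Mx1) when GILZ TG replicate 2 was and 4 when GILZ TG replicate 3 was. Without GILZ TG replicates 1 and 2, whose neutrophil lineage sums after LPS were 184.1 and 427.5 TPM against 17.2 to 73.2 TPM in the other 7 libraries, 1 GILZ TG library remained and the count was 0, while the differences were -0.46 for Mx1 and -0.40 for Mx2. The count was also 0 when all 18 libraries were fitted together, and 1, Mx1, with the replicate number as a block. The part of the other cells in the difference was not tested. Of the pathway genes, 1 of 25 was called, Irf1, at -0.45 ± 0.09 (edgeR adjusted p = 0.0323), lower in GILZ KO.

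**Figure D4:**
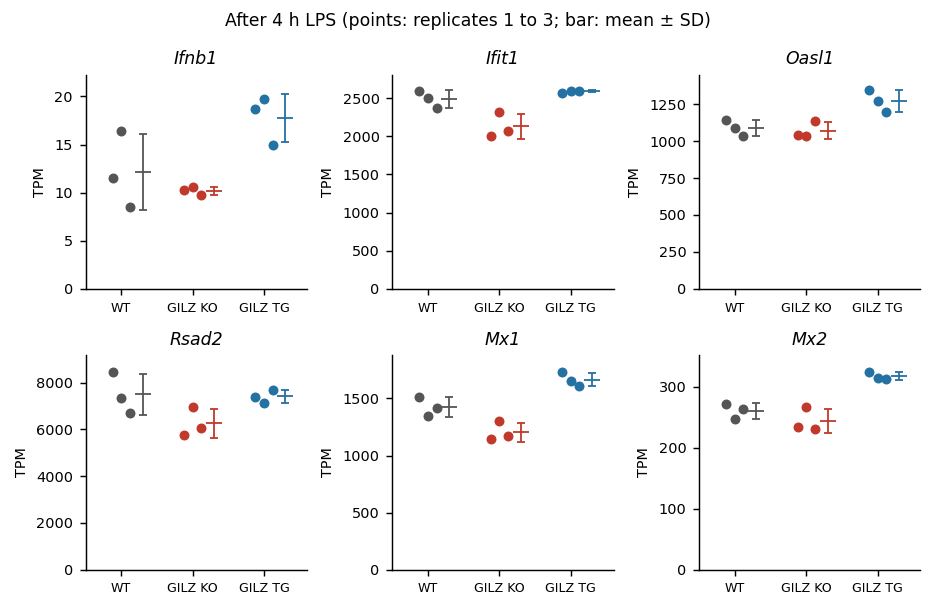
Level (TPM) of Ifnb1, Ifit1, Oasl1, Rsad2, Mx1 and Mx2 in the 9 LPS libraries, with points for replicates 1 to 3 and a bar for the mean ± SD of each genotype. For Mx1 and Mx2 all GILZ TG points lie above all GILZ KO points, and for Ifnb1 the GILZ KO points are close together at 9.77 to 10.6 TPM.

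Whether the LPS response itself depended on the genotype was measured by interaction contrasts, the difference between 2 LPS log2 fold changes. These contrasts share their libraries with the comparisons above and are not separate evidence. Ifnb1 is counted among the 40 members in each, though without untreated reads its differences rest on the LPS libraries alone. Between GILZ KO and WT, edgeR called 0 of 40 members. At an unadjusted p under 0.05, 0 were higher and 21 lower, against 2.07% and 4.3% of all genes. edgeR called 0.00759% of all genes in each direction. DESeq2 called 2 (Ifit1 and Mx2), and limma 0. The LPS response was smaller in GILZ KO for 37 of 40 members, where 54.9% of all genes were below 0, and the median difference was -0.37 against -0.02 for all genes. Ifit1 had the smallest p, at -1.20 ± 0.24 (SE, edgeR adjusted p = 0.221), followed by Ifit2 at -1.18 ± 0.28 (adjusted p = 0.449). Neither passed in edgeR. Without GILZ KO replicate 1 of both treatments the differences were -0.81 for Ifit1 and -0.70 for Ifit2. The count of 21 was 16 without GILZ KO untreated replicate 1, and 27 with same-numbered libraries of a genotype as a block. In the comparisons above, the median of GILZ KO against WT was 0.24 untreated and -0.11 after LPS. The Ifit1 difference was 0.94 untreated and -0.23 after LPS, so that the untreated side was the larger part.

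Between GILZ KO and GILZ TG, edgeR called 2 of 40 members with a smaller response in GILZ KO and 0 with a larger one, where 0.0683% of all genes were called lower and 0.0532% higher. Ifit1 rose by log2 8.09 in GILZ KO and by 9.56 in GILZ TG, a difference of -1.47 ± 0.24 (adjusted p = 0.0237). Mx2 rose by 7.51 in GILZ KO and by 9.19 in GILZ TG, a difference of -1.69 ± 0.29 (adjusted p = 0.0258). At an unadjusted p under 0.05, 25 members had a smaller response and 0 a larger one, against 6.07% and 3.84% of all genes. The median difference was -0.38, and 37 of 40 were below 0, against 54.5% of all genes. The 3 members above 0 were Bst2, Ifnar2 and Ifitm3, which were among the highest before LPS. On the log2(TPM + pseudocount) scale Ifitm3 was below 0 and Isg20 and Daxx above it. The IFIT genes lay at -1.73 to -1.36 and Mx1 at -1.41, while the OAS genes had a median of -0.31 and Ifnar1 was at -0.05. The untreated GILZ TG and WT levels of Mx2 were about 1 TPM, at 0.61, 0.87 and 1.02 TPM and 1.05, 1.23 and 0.96 TPM, against 3.01, 1.79 and 1.30 TPM in GILZ KO. In the comparisons above, GILZ KO against GILZ TG was at 1.16 untreated and -0.29 after LPS for Ifit1. For Mx2 it was at 1.27 and -0.39.

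These 2 calls depended on which libraries were fitted. With only the 12 GILZ KO and GILZ TG libraries in the fit, edgeR called Ifih1 and Parp14 in place of both, and the adjusted p was 0.0595 for Ifit1 and 0.0653 for Mx2, with differences of -1.47 and -1.69. With all genotypes in the edgeR test the count was 0 when any 1 of GILZ TG untreated replicates 1 and 2, GILZ KO LPS replicates 1 and 3 and GILZ TG LPS replicate 2 was left out. It was 1, Ifit1, without GILZ KO untreated replicate 1. It was 5 without GILZ KO untreated replicate 3, GILZ TG untreated replicate 3, WT LPS replicate 1 or GILZ TG LPS replicate 3. Without GILZ TG replicates 1 and 2, which left 1 GILZ TG library a treatment, it was 0, with differences of -1.22 for Ifit1 and -1.43 for Mx2. Without GILZ KO replicate 1 of both treatments, which are not known to be 1 preparation, it was 0, with differences of -1.08 and -1.22. DESeq2 called 10 and limma 1, Ifit1. With same-numbered libraries of a genotype as a block, edgeR called 10, Ifit1 and Mx2 among them. The LPS responses of GILZ TG and WT did not separate, with 0 of 40 members called by edgeR, DESeq2 and limma and 1 at an unadjusted p under 0.05, Mx2, higher, against 1.43% of all genes higher and 1.66% lower. edgeR called 0.00759% of all genes higher there. The median difference there was 0.05, with 24 of 40 above 0, and without GILZ TG replicates 1 and 2 it was 20 of 40. Of the 25 pathway genes, 0 were called in any of the 3 response contrasts.

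**Figure D5:**
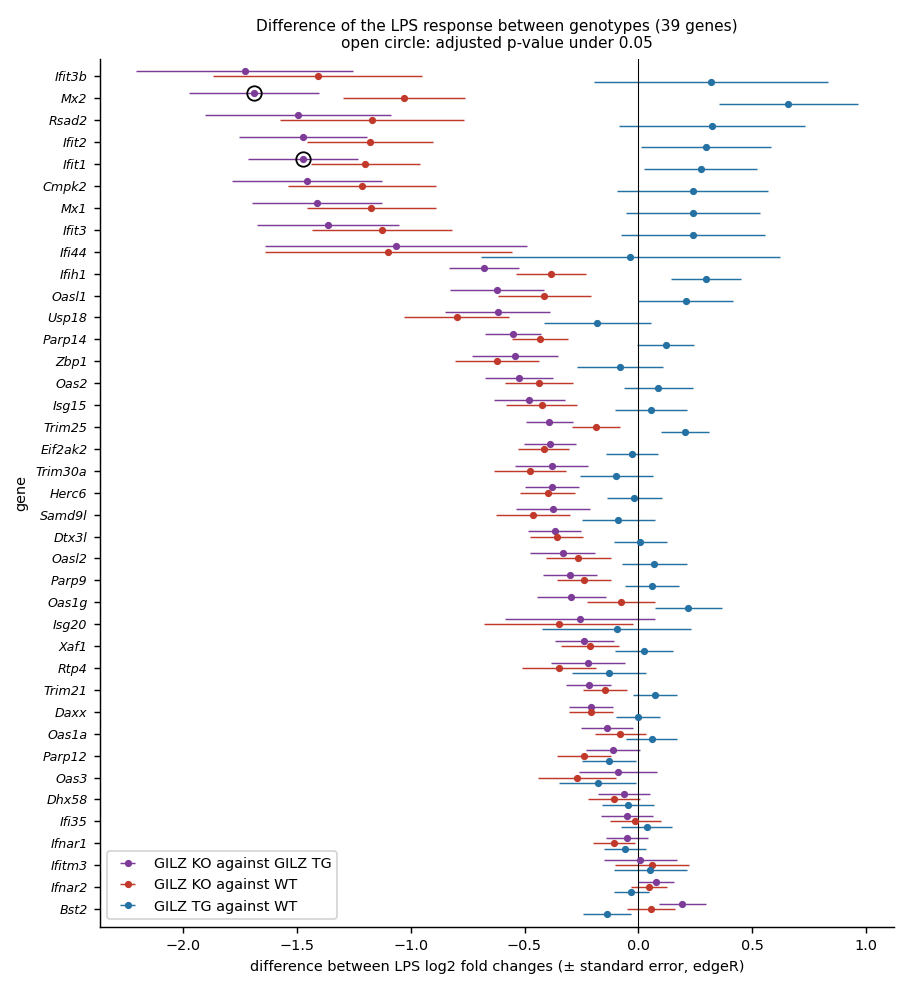
Difference of the LPS log2 fold change between genotypes with its standard error (x axis) for 39 members (rows), for GILZ KO against GILZ TG, GILZ KO against WT and GILZ TG against WT. The values of GILZ KO against either genotype are below 0 for most members and reach -1.73 for Ifit3b, those of GILZ TG against WT lie around 0, and open circles mark the called members Mx2 and Ifit1.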

How the data were processed

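Poly(A) RNA of 18 BMM libraries was sequenced as single-end reads. Per the labels, the authors checked reads with FastQC 0.11.2 and used the GRCm38 build. They deposited gene tables with expected counts and TPM for each library. The deposited tables of the authors' comparisons, made with DESeq2 1.40.2, hold fold changes and p-values, which were not used, and only their pairing of symbols with identifiers was read.

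Expected counts were rounded. The count test was edgeR 4.0.16 in R 4.3.3 (filterByExpr, TMM, quasi-likelihood fit, Benjamini-Hochberg threshold 0.05 over all genes tested). Genotypes were compared over 9 libraries per treatment, LPS effects and their differences over 18. Alternatives were DESeq2 1.42.0, its size factors within edgeR, limma 3.58.1 on log2(TPM + 1) and log2(TPM + 0.1), no filter on low counts, other sets of libraries, a replicate block and leaving out each library. Leaving out GILZ TG replicates 1 and 2, or GILZ KO replicate 1, of both treatments was chosen after seeing the data. The fits were tested on simulated data. A TPM is a level per transcript length; fold changes are from counts.

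Named genes were Ifnb1, the 3 largest and 3 smallest LPS responses and the 3 highest untreated levels in WT, every member called between genotypes, and otherwise the 2 with the smallest p. Other genes are named for their roles, with values. The members and lists were chosen with earlier results of these data known. The p-values measure the spread between 3 preparations a group. Read depth was 14583055 to 38557029, so a gene without reads allows up to 3 counts, for counting error only. Coordinates are those of GENCODE on GRCm38. Samples with the same number were not treated as pairs in the results, other than in the block. Motif searches and plots used Python 3.11.15 and matplotlib 3.10.9. The value of 1 gene of the pathway list is not reported here.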

Additional observations from a re-analysis of the deposited data

Results flagged for a closer look

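The LPS response of 2 members differed between GILZ KO and GILZ TG BMMs in the test of the difference itself. For Ifit1 the difference of the log2 fold changes was -1.47, and for Mx2 it was -1.69. Both were smaller in GILZ KO, and both calls were lost when single GILZ KO or GILZ TG libraries were left out and when the 12 libraries of these genotypes were fitted alone, where Ifih1 and Parp14 were called. No test for a single outlying value was run, since each group held 3 libraries.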

How the results depend on the processing

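The LPS calls, 40 of 40 members in each genotype, were the same under every alternative run. None of these LPS responses, of the called genotype differences or of those with the smallest p changed direction. Differences of other members did. With all libraries kept, 1 to 5 members in each comparison that involves genotypes changed direction under some alternative, such as Xaf1 in untreated GILZ KO against WT (0.06 by edgeR and -0.07 by limma on log2(TPM + 1)), and 1 of these had an unadjusted p under 0.05 in edgeR, Daxx, in the LPS response of GILZ KO against GILZ TG. With libraries left out as well, 27 members changed direction in untreated GILZ TG against WT, up to Rsad2 at -0.35. In GILZ TG against WT, 25 did so after LPS and 26 in the LPS response. In the other comparisons 5 to 15 did. The genotype counts moved. Under DESeq2, 4 members were called in untreated GILZ KO against WT, 15 in untreated GILZ KO against GILZ TG, 1 in GILZ TG against WT after LPS, 5 in GILZ KO against GILZ TG after LPS, and 2 and 10 in the LPS response of GILZ KO against WT and against GILZ TG. Without the filter on low counts the last 3 were 4, 1 and 7. limma called 4 in untreated GILZ KO against GILZ TG and 1 in that LPS response with either pseudocount. In GILZ KO against GILZ TG after LPS, 0 were called with all 18 libraries in 1 fit. Leaving out 1 library gave 0 to 18 calls in untreated GILZ KO against GILZ TG, 0 to 1 in untreated GILZ KO against WT, 0 to 1 in both GILZ TG against WT comparisons, 0 to 4 in GILZ KO against GILZ TG after LPS and 0 to 5 in the LPS response of GILZ KO against GILZ TG. Without GILZ TG replicates 1 and 2, which leaves 1 GILZ TG library a treatment and says nothing about stability, or in the LPS response without GILZ KO replicate 1 of both treatments, 0 were called in GILZ KO against GILZ TG. With only the 12 libraries of both genotypes, the LPS response of GILZ KO against GILZ TG had 2 calls again, but of Ifih1 and Parp14. The causes were not tested. Same-numbered libraries correlated above 0.1 in 3 of 18 genotype pairs and 4 of 9 treatment pairs, which held all 3 of GILZ TG (0.266 to 0.605) and 1 of 6 in the others, and 11 of 18 libraries correlated best with their own number. Not every pair was above 0.1, and the numbers were not taken as pairs in the main tests, between genotypes or between treatments. For GILZ TG, however, all 3 treatment pairs were above it. Its B cell marker Igkc followed the number, at 42.3, 97.4 and 11.4 TPM untreated and 43.1, 93.2 and 7.28 TPM after LPS. The LPS and response tests without a block therefore leave out a preparation that both treatments may share. With a replicate block, 1 member was called in GILZ KO against GILZ TG after LPS and 10 in that LPS response. Low counts limit Mx2, Ifit3b, Isg20 and Ifi44 in untreated cells, with Isg20 at 20 to 39 reads and Ifi44 at 5 to 37 reads a library. The uncertain split of reads with Mx1 also limits Mx2.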
